A study of Mus musculus with 24 samples.

Results

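Bone from mice given a FLASH proton beam was set against bone from mice given a standard proton beam. These 8 libraries, 4 labelled F-PRT and 4 labelled S-PRT, were chosen by their tissue and treatment labels out of 24 libraries in the series, and 4 untreated bone libraries served as the common background. F-PRT is read here as FLASH proton radiotherapy and S-PRT as its conventional counterpart, as the series title and labels abbreviate them. All mice were female and 10 weeks old, and the RNA was polyA-selected. The series concerns a mouse sarcoma model. The sources used here do not state the strain, dose, dose rate, time after irradiation, bone sampled or any batch. The replicates are called biological in the labels, and n = 4 for each group throughout. Total expected counts per library ran from 15.15 to 16.58 megacounts in F-PRT bone, from 13.83 to 17.36 in S-PRT bone and from 10.91 to 16.21 in Untreated bone.

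FLASH radiotherapy delivers its dose at a much higher rate than conventional radiotherapy and has been studied for sparing normal tissue around a tumour. The comparison asks whether bone and its marrow carry a different transcriptome after the FLASH beam than after the standard beam. Bone holds matrix-forming osteoblasts, embedded osteocytes and matrix-resorbing osteoclasts, and its marrow is among the most radiation-sensitive tissues of the body. Radiation is known to activate p53, to deplete dividing blood precursors and, through nucleic acids released inside cells, to induce interferons. Interferons bind their receptors, the kinases Jak1 and Tyk2 phosphorylate transcription factors such as Stat2, which with Irf9 act at a short promoter element and switch on a broad set of antiviral genes.

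Collagen, osteocyte and marrow markers fitted the tissue label, with Col1a1, the main collagen chain of bone, between 14362 and 28488 CPM (counts scaled to library size and composition) in the irradiated libraries. Some libraries stood apart. F-PRT 3 had the lowest cartilage list level of the irradiated libraries, at a mean log2 CPM of 2.89 against 4.67 to 5.06 in the other F-PRT libraries, and the highest skeletal muscle list level, at 8.11. S-PRT 2 had the lowest macrophage list level of the irradiated libraries, at 5.97, where S-PRT 1, S-PRT 3 and S-PRT 4 lay at 6.80 to 6.87. Traces of epidermis differed as well: Krt14, a keratin of basal epidermis, stood at 0, 20.4, 2.98 and 6.22 CPM in F-PRT libraries and at 0.171, 0.138, 0.241 and 4.05 CPM in S-PRT libraries, against 1952 to 8521 CPM in the 12 skin libraries of the series. F-PRT 2, F-PRT 3, F-PRT 4 and S-PRT 4 thus held small amounts of keratin RNA that F-PRT 1 did not. In bulk tissue, fewer cells of a type and less RNA per cell cannot be told apart.

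The 2 beams left bone with very similar profiles, apart from the interferon-stimulated genes, which were higher after F-PRT. Of 18848 genes tested, 1 passed at a Benjamini-Hochberg adjusted p under 0.05 (edgeR quasi-likelihood test, 0.00531%), and it was the interferon-inducible Slfn4, higher after F-PRT. Without adjustment 634 genes had p under 0.05 (3.36%), 400 of them higher (2.12%) and 234 lower (1.24%) after F-PRT. The median log2 difference over all genes, F-PRT minus S-PRT, was 0.01, and 51.4% of the differences were positive. All 4 F-PRT libraries lay above all 4 S-PRT libraries for 341 genes (1.81%) and below them for 196 genes (1.04%).

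The similarity can be bounded. The 95% interval of the difference lay within 2-fold in either direction for 15309 genes (81.2%), and for 9899 of the 10186 genes with a mean of at least 10 CPM in the irradiated libraries (97.2%). Taken gene by gene, these 95% intervals hold no difference of 2-fold or more, while smaller differences remain possible. The intervals were not adjusted for the number of genes, so some of these genes can still differ by 2-fold or more. Set against Untreated bone, the same fit called 6161 genes after F-PRT, 2925 that rose (15.5%) and 3236 that fell (17.2%), and 5380 genes after S-PRT, 2512 that rose (13.3%) and 2868 that fell (15.2%). Both counts use the same Untreated libraries.

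**Figure D1:**
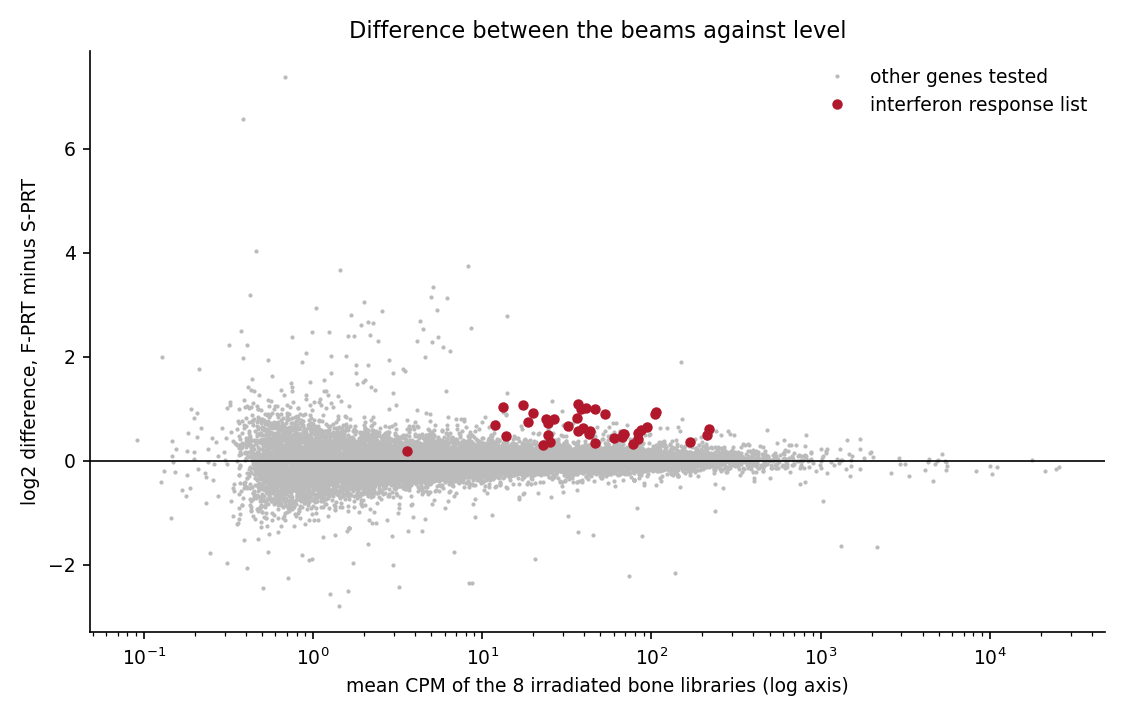
Log2 difference, F-PRT minus S-PRT, of each of the 18848 genes tested (vertical axis) against its mean CPM in the 8 irradiated bone libraries (horizontal, log axis). The 39 interferon response genes (red) all lie above 0, while the other genes (grey) centre near 0.

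Interferon response genes were higher after F-PRT throughout a list of 39. The list was chosen with earlier results of these data known, so its counts describe the difference and are not a prior test. All 39 members were tested and all 39 differences were positive, from 0.20 to 1.09 on the log2 scale, with a median of 0.61 beside 0.01 over all genes. In 31 of the 39 members every F-PRT library lay above every S-PRT library, beside 1.81% of all genes, and 36 of the 39 had an unadjusted p under 0.05 with a positive difference, beside 2.12%. Of the 39, only Slfn4 passed the test across all genes. Of the 25 nameable genes with the smallest p across the genome, 14 were members of this list and 24 were higher after F-PRT.

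The promoters of 3 members and of the related gene Ddx60, which is not on the list, are shown because the motif through which interferon is known to act was frequent in the list. The motif searched was GAAANNGAAA, the core of the interferon-stimulated response element, on either strand (TTTCNNTTTC on the other), with overlapping matches counted separately. In RefSeq promoters of build GRCm38.p6, from 250 bases before to 50 bases after each start, it occurred in 1079 of 27025 genes (3.99%), in 478 of 12195 genes tested here (3.92%) and in 20 of the 30 interferon response genes that had a promoter in the table (66.7%). It occurred in 54 of 242 genes whose F-PRT libraries all lay above the S-PRT libraries (22.3%) and in 5 of 114 genes whose F-PRT libraries all lay below (4.39%). The genes above include many members of the interferon response list, and the motif was chosen after the values were seen. The 22.3% is therefore not separate from the share in the list. The 250 bases before the start follow, with the motif in capitals. Ifit3 and Ddx60 each hold 2 separate matches and Isg15 holds 3 that overlap one another. Slfn4, the gene that passed the test, has none in this window, which says only that these letters are not there.
Ifit3, chr19:34583279-34583528, plus strand: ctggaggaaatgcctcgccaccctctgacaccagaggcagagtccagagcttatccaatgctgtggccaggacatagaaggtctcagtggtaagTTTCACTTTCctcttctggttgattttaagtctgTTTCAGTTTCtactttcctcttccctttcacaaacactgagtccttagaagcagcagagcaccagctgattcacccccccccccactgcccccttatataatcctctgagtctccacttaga
Isg15, chr4:156200819-156201068, minus strand: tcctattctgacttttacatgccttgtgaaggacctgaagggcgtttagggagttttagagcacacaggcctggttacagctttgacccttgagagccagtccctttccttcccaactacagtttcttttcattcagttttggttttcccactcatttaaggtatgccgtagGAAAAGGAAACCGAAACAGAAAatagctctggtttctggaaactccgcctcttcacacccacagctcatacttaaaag
Ddx60, chr8:61927837-61928086, plus strand: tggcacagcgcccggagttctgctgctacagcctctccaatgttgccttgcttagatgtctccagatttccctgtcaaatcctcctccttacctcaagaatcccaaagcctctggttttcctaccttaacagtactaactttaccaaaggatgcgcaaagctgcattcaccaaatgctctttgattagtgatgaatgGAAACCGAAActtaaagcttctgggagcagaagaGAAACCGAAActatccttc
Slfn4, chr11:83174936-83175185, plus strand: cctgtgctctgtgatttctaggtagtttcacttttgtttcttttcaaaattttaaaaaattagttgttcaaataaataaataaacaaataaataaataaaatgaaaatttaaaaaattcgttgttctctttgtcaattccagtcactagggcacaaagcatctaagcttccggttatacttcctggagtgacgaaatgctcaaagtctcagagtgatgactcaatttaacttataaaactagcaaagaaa

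Slfn4, a Schlafen family gene of myeloid cells, lies at chr11:83175186-83190216 on the plus strand (GRCm38). It had 54.2, 53.9, 46.4 and 65.6 CPM in F-PRT libraries and 31.4, 28.7, 21.6 and 27.6 CPM in S-PRT libraries, against 176, 150.1, 162 and 145 CPM in Untreated libraries. No F-PRT library overlapped an S-PRT library, and both beams stood far below Untreated bone. The log2 difference between the beams was 1.01 ± 0.13 (SE), with a 95% interval from 0.73 to 1.29 and an adjusted p of 0.043 (edgeR). Slfn4 fell by 1.52 on the log2 scale after F-PRT (adjusted p = 2.47e-06, edgeR) and by 2.53 after S-PRT (adjusted p = 5.31e-08). Granulocyte genes were lower than in Untreated bone beside it: the neutrophil lineage list stood at a mean log2 CPM of 4.27 to 4.47 in F-PRT libraries and 3.80 to 5.07 in S-PRT libraries, against 6.25 to 8.13 in Untreated libraries. The part of this in the Slfn4 level was not tested. The Slfn4 call between the beams rests on all libraries being in: it was lost in 10 of the 12 fits that left out 1 library, with adjusted p up to 0.277 without S-PRT 4, while its log2 difference stayed between 0.91 and 1.09.

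The largest separate differences were those of antiviral effectors. Ifi44, an interferon-induced protein gene at chr3:151730922-151749960 on the minus strand, had 18.9, 29.3, 19.9 and 25.9 CPM in F-PRT libraries and 11.4, 8.77, 12 and 12.3 CPM in S-PRT libraries, against 3.91, 4.8, 5.47 and 5.63 CPM in Untreated libraries. The 3 groups did not overlap, and the log2 difference between the beams was 1.08 with an interval from 0.73 to 1.43, but its adjusted p was 0.123 (edgeR). Ifit2, which binds foreign RNA and blocks its translation, lies at chr19:34550694-34576419 on the plus strand and had 52.4, 72.7, 55.3 and 68.6 CPM in F-PRT libraries and 25.6, 25.4, 39 and 34.6 CPM in S-PRT libraries, against 17.6, 21.2, 22.5 and 18.6 CPM in Untreated libraries. All F-PRT libraries stood above all S-PRT libraries, by 1.00 on the log2 scale (interval 0.66 to 1.33, adjusted p = 0.123). Of the Ifit family, Ifit3 had 46.2, 58.1, 40 and 55.2 CPM in F-PRT libraries and 25.8, 14.4, 25.7 and 27.5 CPM in S-PRT libraries, against 5.42, 8.54, 12.5 and 9.78 CPM in Untreated libraries. Again all 3 groups were separate, and the log2 difference between the beams was 1.09 (interval 0.61 to 1.57). Ifit1 differed by 1.00 (0.54 to 1.46) and the near-identical Ifit3b by 1.03 (0.39 to 1.68), whose reads can be shared with Ifit3.

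**Figure D2:**
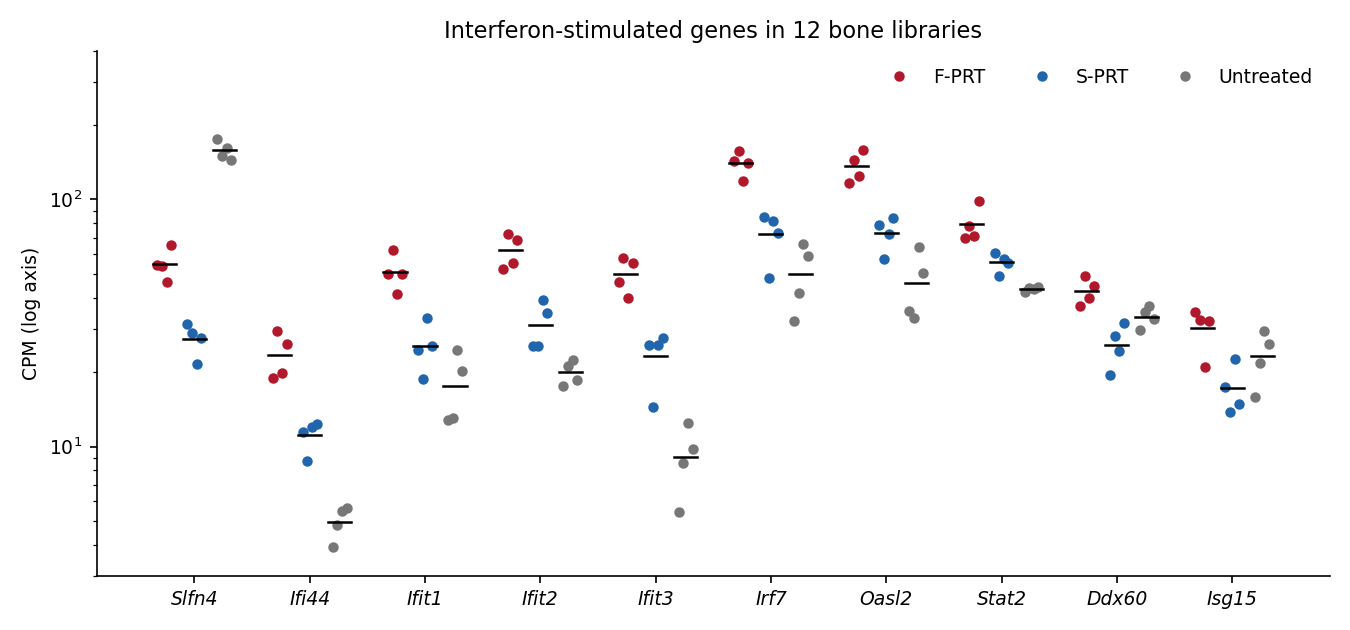
CPM (log axis) of 10 interferon-stimulated genes in each of the 12 bone libraries, with F-PRT (red), S-PRT (blue) and Untreated (grey) side by side and the group mean as a black bar. The F-PRT points of Slfn4, at 46.4 to 65.6 CPM, lie above the S-PRT points, at 21.6 to 31.4 CPM, and both lie below the Untreated points, whereas Ifi44 and Ifit3 run from F-PRT over S-PRT down to Untreated.

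Irf7, Stat2 and Irf9, transcription factors of the pathway and members of the interferon response list, were higher after F-PRT than after S-PRT. Irf7, the transcription factor that amplifies interferon production, had 143, 157, 119 and 141 CPM in F-PRT libraries and 85.2, 47.9, 82.2 and 73.4 CPM in S-PRT libraries, against 32.3, 41.9, 65.9 and 59 CPM in Untreated libraries. Its lowest F-PRT library exceeded the highest S-PRT library, by 0.95 in log2 difference over the groups (0.50 to 1.41), whereas S-PRT and Untreated libraries overlapped. Stat2 had 70.1, 78.3, 71.1 and 98.6 CPM in F-PRT libraries and 60.9, 49.1, 57.4 and 55.1 CPM in S-PRT libraries, against 42.3, 43.8, 43.3 and 44.4 CPM in Untreated libraries, a log2 difference between the beams of 0.52 (0.28 to 0.75). Irf9, the DNA-binding partner of Stat2, averaged 86.5 ± 5.53 CPM in F-PRT libraries and 69 ± 7.28 CPM in S-PRT libraries, against 76.7 ± 2.83 CPM in Untreated libraries (SD). It did not pass against Untreated after either beam, and its log2 difference between the beams was 0.33 (0.14 to 0.51). All F-PRT libraries were above all S-PRT libraries for each of these 3 regulators.

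The receptors and kinases that start the pathway were nearly level. Of 9 such genes, 8 had positive differences, beside 51.4% of all genes, and the median was 0.07. Of the 9, 1 was separate upward between the beams, beside 1.81% of all genes. That gene was Jak1, at 0.11 (interval -0.13 to 0.35). Ifnar1 and Ifnar2, the chains of the type I interferon receptor, differed by 0.02 (-0.16 to 0.20) and 0.19 (-0.05 to 0.42), and Tyk2 by 0.02 (-0.14 to 0.19). The interferons themselves were scarcely read at this depth: 20 of 21 ligand genes did not reach the filter on low counts. Among them Ifnb1, the interferon beta gene, had 0 counts over the 4 F-PRT libraries and 0 over the 4 S-PRT libraries, which allows up to 3 counts in each group, and Ifng, the type II interferon gene, had 39 counts over F-PRT libraries and 20 over S-PRT libraries, against 4 over Untreated libraries. These 20 genes were not tested in the edgeR fit. The ligand gene that was tested, Ifnk, lay at a log2 difference of -0.16 (-1.43 to 1.11) between the beams.

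Sensors of viral and self nucleic acids lie before interferon production. The sensor genes Ifih1, Ddx58 and Dhx58 are themselves members of the interferon response list. The cytosolic RNA sensor Ifih1 (MDA5) had 78.8, 84.6, 72.8 and 75.5 CPM in F-PRT libraries and 55.3, 51.7, 65.7 and 54 CPM in S-PRT libraries, against 42.8, 42.5, 47.3 and 46.5 CPM in Untreated libraries. The 3 groups were separate, with a log2 difference between the beams of 0.46 (0.26 to 0.65). Ddx58 (RIG-I) differed by 0.42 (0.12 to 0.73) and Dhx58 (LGP2), a regulator of both, by 0.73 (0.33 to 1.13). Of 11 further sensing genes, 9 had positive differences with a median of 0.21, among them the endosomal RNA receptors Tlr3 at 0.42 (0.15 to 0.69) and Tlr7 at 0.50 (0.04 to 0.95). Of their signalling partners, Mavs lay at -0.00 (-0.22 to 0.21), Tmem173 (STING) at 0.21 (-0.19 to 0.60) and Irf3 at -0.15 (-0.33 to 0.02).

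Antiviral enzymes and restriction factors made up much of the list. Oasl2, of the oligoadenylate synthetase family, whose active members sense double-stranded RNA and activate RNase L, had 117, 145, 125 and 159 CPM in F-PRT libraries and 79.1, 57.3, 72.6 and 84.4 CPM in S-PRT libraries, against 35.5, 33.1, 64 and 50.4 CPM in Untreated libraries. The beams were separate, by a log2 difference of 0.90 (0.48 to 1.31). Oas3 differed by 0.65 (0.34 to 0.96), Oas1a by 0.80 (0.22 to 1.38), Oas2 by 0.52 (0.22 to 0.82) and Oasl1 by 0.92 (0.44 to 1.40). The restriction factor Mx1 differed by 0.70 (0.35 to 1.04) and the virion tether Bst2 by 0.68 (0.18 to 1.18), while Mx2, the member of smallest difference, lay at 0.20 (-0.46 to 0.85). Isg15, a ubiquitin-like modifier, had 34.9, 32.6, 20.9 and 32.2 CPM in F-PRT libraries and 17.4, 13.8, 22.7 and 14.9 CPM in S-PRT libraries, against 15.8, 21.8, 29.3 and 26 CPM in Untreated libraries. F-PRT 3 lay inside the S-PRT range for Isg15, and the log2 difference between the beams was 0.81 (0.36 to 1.26). Usp18, which removes Isg15 from proteins and damps the receptor, differed by 0.74 (0.37 to 1.10).

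Where the beams stood against Untreated bone varied by gene. In the interferon response list 32 of 39 genes rose and 2 fell after F-PRT (edgeR), with a median log2 difference from Untreated of 1.23, beside 15.5% of all genes that rose and 17.2% that fell. After S-PRT 21 rose and 3 fell, with a median of 0.53, beside 13.3% of all genes that rose and 15.2% that fell. The largest rise among the members named was that of Cxcl10, a chemokine for T cells, by 2.77 on the log2 scale after F-PRT (adjusted p = 2.55e-06) and 2.29 after S-PRT (adjusted p = 1.42e-05). Its 4 F-PRT values spanned 14.1 to 17.9 CPM and its S-PRT values 8.22 to 14.4 CPM, against 1.52 to 3.53 CPM in Untreated libraries. Rsad2 (viperin) and Slfn4 fell after both beams, Rsad2 by 0.78 after F-PRT (adjusted p = 0.00324) and by 1.15 after S-PRT (adjusted p = 2.49e-04). Ddx60, an RNA helicase that aids sensing, and Oas3 did not pass against Untreated after either beam, with Ddx60 at 0.35 after F-PRT and -0.38 after S-PRT and Oas3 at 0.25 after F-PRT and -0.40 after S-PRT. In Ddx60 the F-PRT libraries had 37.2, 48.9, 39.9 and 44.7 CPM and the S-PRT libraries 19.4, 28.1, 24.4 and 31.6 CPM, against 29.6, 34.9, 36.9 and 32.8 CPM in Untreated libraries, so every F-PRT library exceeded every other library in bone. These comparisons share the Untreated libraries.

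Related families were looked up after the interferon values were seen. They are not independent of the list, since Gbp2, Gbp3, Gbp5, Slfn4, Slfn5 and Slfn8 are also among its 39 genes. All 12 tested genes of the HIN-200 family, some of which sense DNA, had positive differences between the beams, with a median of 0.67. Of these, 7 were separate upward, beside 1.81% of all genes. Ifi205 had 13.5, 21.5, 17.3 and 19.6 CPM in F-PRT libraries and 8.96, 7.88, 11.8 and 10.2 CPM in S-PRT libraries, against 3.58, 2.06, 4.33 and 2.68 CPM in Untreated libraries. It differed by 0.89 (0.45 to 1.32), whereas Aim2, the inflammasome sensor of the family, lay at 0.14 (-0.12 to 0.41). Of 9 guanylate-binding proteins, interferon gamma-inducible GTPases, 8 were positive with a median of 0.43 and 4 were separate. Gbp6 led them with 34.4, 40, 43.2 and 59.3 CPM in F-PRT libraries and 28.6, 20.7, 25.9 and 27.7 CPM in S-PRT libraries, against 8.57, 10.7, 10.3 and 11.7 CPM in Untreated libraries. All 3 groups were separate, with a log2 difference between the beams of 0.78 (0.44 to 1.12), while Gbp8 lay at -0.14 (-0.44 to 0.16). Of 9 Schlafen genes 8 were positive with a median of 0.51, Slfn14 being the exception at -0.23 (-0.67 to 0.22). All 15 MHC class I presentation genes were positive at a median of 0.30, and 5 were separate, among them B2m, the light chain of every class I molecule, at 0.42 (-0.06 to 0.91). In MHC class II presentation, 6 of 9 were positive with a median of 0.17 and 0 were separate. Without S-PRT 2 these medians were 0.18 for class I and -0.00 for class II. Some HIN-200, guanylate-binding and Schlafen genes have near-identical copies, so reads can be shared between them.

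The list level in each library shows how the difference was spread over mice. The mean log2 CPM of the 39 genes was 5.60, 5.77, 5.47 and 5.81 in F-PRT libraries and 5.09, 4.69, 5.17 and 5.06 in S-PRT libraries, against 4.08, 4.44, 4.82 and 4.62 in Untreated libraries. No F-PRT library reached down to the S-PRT range, while S-PRT 2 lay within the Untreated range. All 39 differences stayed positive in every alternative run, and the list's median lay between 0.50, without S-PRT 2, and 0.72, without F-PRT 2, F-PRT 3 and Untreated 1. F-PRT 1, in which Krt14 and Krt5 read 0, had an interferon level of 5.60, and against it alone (without F-PRT 2, F-PRT 3 and F-PRT 4) the median was 0.56, with 17 of the 39 at an unadjusted p under 0.05. With a keratinocyte covariate in the model the median was 0.54, with 30 of the 39. In both of these fits 0 of the 39 passed the test. Without S-PRT 2, the library of low macrophage level, 30 of the 39 had an unadjusted p under 0.05, and 36 of 39 with all libraries. The part of macrophage or other immune cell number in the interferon difference was not tested beyond this.

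**Figure D3:**
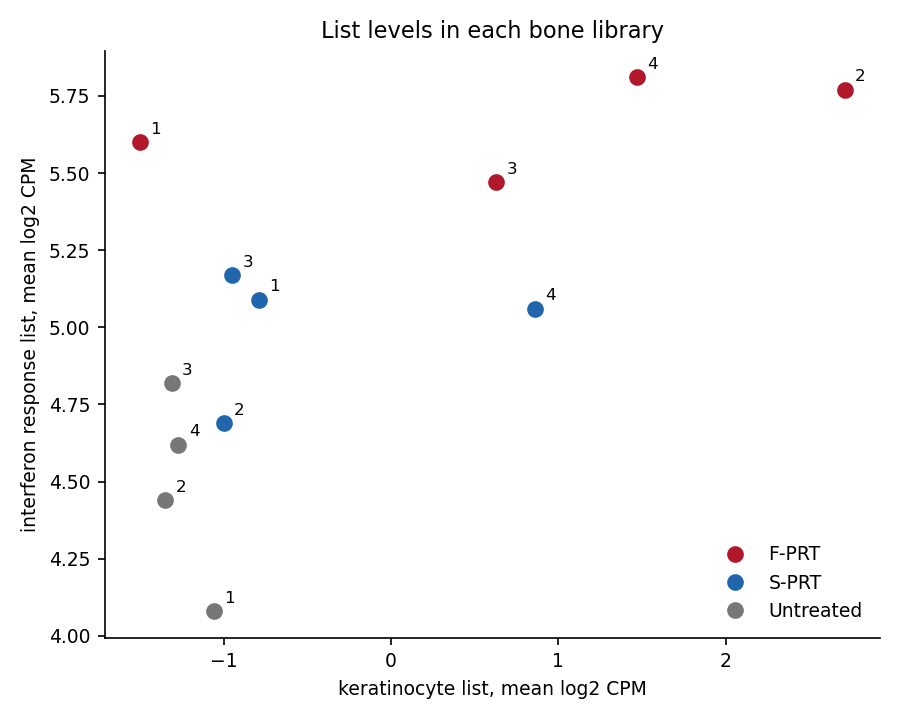
Mean log2 CPM of the interferon response list (vertical axis) against that of the keratinocyte list (horizontal axis) in each bone library, numbered by replicate and coloured by group. F-PRT 1 lies at the left with the Untreated libraries in keratinocyte level and with the other F-PRT libraries in interferon level, at 5.60.

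By DESeq2, a different count model, 21 of 13366 genes with an adjusted p passed, all higher after F-PRT (0.157%). Of these, 12 belonged to the interferon response list: Slfn4, Mx1, Irf7, Ifih1, Ifi44, Oasl2, Usp18, Oas3, Ifit1, Stat2, Ifit2 and Ifit3. The other 9 were Eif2ak2, the interferon-induced kinase PKR, Ddx60, Parp12, Fgl2, Ifi205, Phf11d, Rnf213, Gbp6 and an immunoglobulin heavy chain variable segment. Rnf213, a large antimicrobial ubiquitin ligase, had 895, 974, 862 and 1116 CPM in F-PRT libraries and 680.4, 613, 730.5 and 705 CPM in S-PRT libraries, against 440.4, 542, 505 and 509.8 CPM in Untreated libraries. The 3 groups were separate, with a log2 difference between the beams of 0.50 (0.25 to 0.74). Fgl2, a secreted immunoregulator, had 80, 88.2, 85.1 and 81.3 CPM in F-PRT libraries and 54.8, 53.4, 70 and 58.8 CPM in S-PRT libraries, against 47.2, 45.3, 58.4 and 47.5 CPM in Untreated libraries. The beams did not overlap in Fgl2 either, at a log2 difference of 0.50 (0.27 to 0.72).

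Fewer genes were lower after F-PRT, and 0 passed the test (edgeR), with 234 at an unadjusted p under 0.05 and 0 by DESeq2. The largest separate difference was that of Kcnh1, a voltage-gated potassium channel gene, at 1.94, 2.54, 1.64 and 2.3 CPM in F-PRT libraries and 3.25, 4.7, 3.62 and 5.5 CPM in S-PRT libraries, against 1.52, 2.29, 1.47 and 1.21 CPM in Untreated libraries. It was the S-PRT libraries that stood above both other groups, and the log2 difference between the beams was -1.01 (-1.54 to -0.49, adjusted p = 0.903). Pnma1 lay at -0.93 (-1.58 to -0.29), the chemokine receptor gene Ccr6 at -0.84 (-1.57 to -0.12), the actin regulator gene Eps8l1 at -0.82 (-1.28 to -0.36), the cartilage gene Mia at -0.82 (-2.05 to 0.40) and the antisense transcript Rapgef4os3 at -0.70 (-1.25 to -0.15). For Mia, F-PRT 3 alone read 0.122 CPM against 2.54 to 3.7 CPM in the other F-PRT libraries.

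The p53 response, the direct answer to DNA damage, was present after both beams and nearly level between them. Of 35 p53 targets, 21 rose and 6 fell against Untreated after F-PRT and 20 rose and 5 fell after S-PRT, with median log2 differences of 0.80 and 0.70. Over all genes 15.5% rose and 17.2% fell after F-PRT, and 13.3% rose and 15.2% fell after S-PRT. The median of the targets between the beams was 0.04. Of the 35 targets 1 was separate upward, beside 1.81% of all genes. That was Gdf15, at a log2 difference of 0.44 (-0.24 to 1.13). Cdkn1a, the p21 inhibitor of the cell cycle, had 109, 139, 99.4 and 169 CPM in F-PRT libraries and 119.7, 129.7, 119 and 153 CPM in S-PRT libraries, against 18.1, 15, 18.7 and 14.8 CPM in Untreated libraries. The beams overlapped entirely, with a log2 difference of -0.02 (-0.35 to 0.32). Eda2r, a death receptor gene, differed by 0.02 (-0.53 to 0.57), Phlda3, an inhibitor of Akt, by 0.03 (-0.36 to 0.42), Bax, which permeabilises mitochondria, by -0.02 (-0.24 to 0.20) and Ccng1 by 0.14 (-0.15 to 0.42). Perp, a p53 target that is also a desmosome gene of epidermis, was the member of smallest p, at 1.99 (0.45 to 3.52), and its F-PRT libraries at 1, 16, 3.83 and 8.52 CPM followed the same order as their Krt14 values. The part of epidermal RNA in it was not tested.

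**Figure D4:**
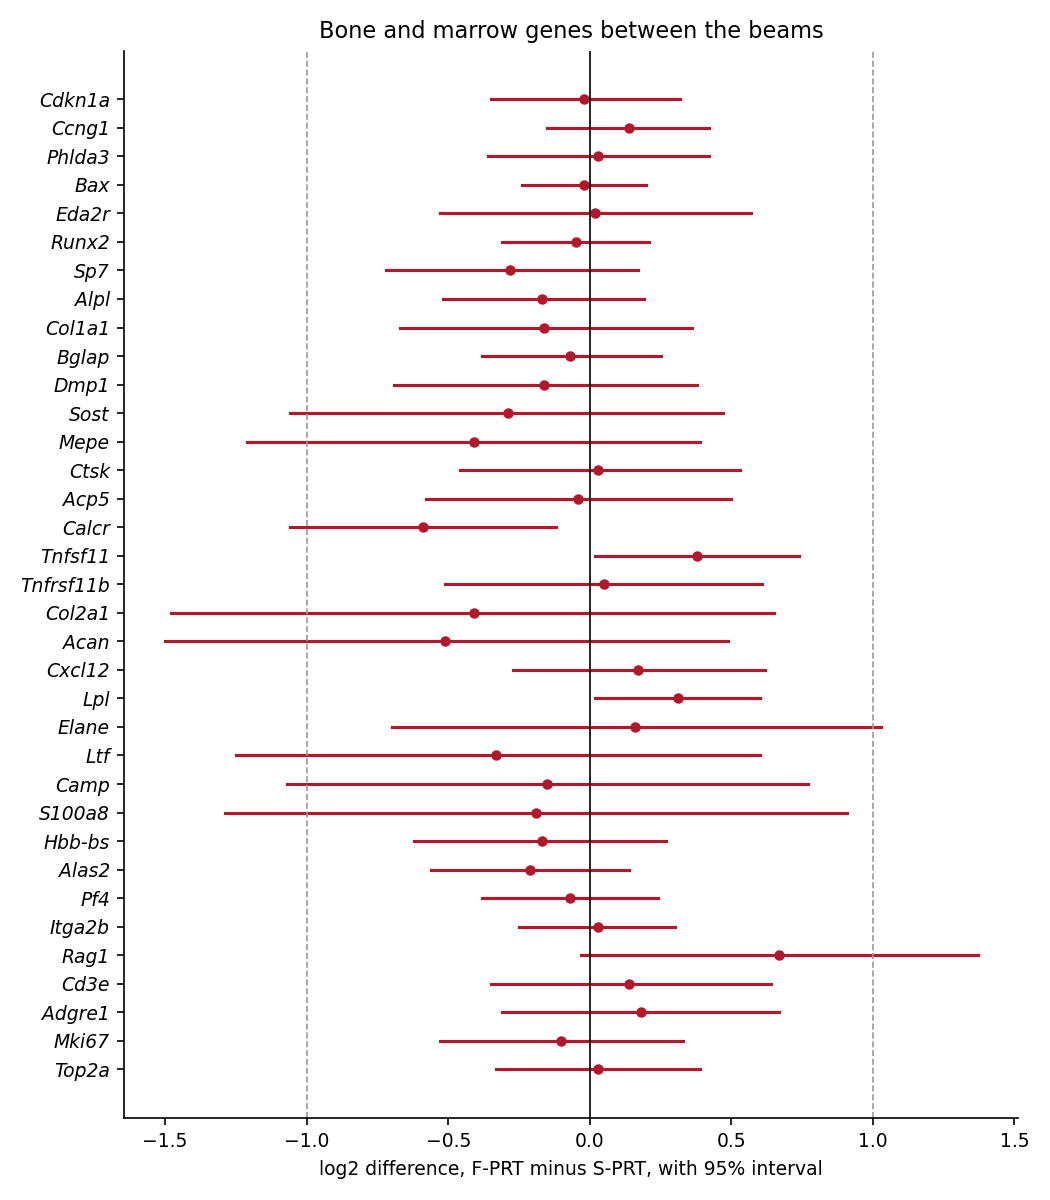
Log2 difference, F-PRT minus S-PRT, with its 95% interval (edgeR) for 35 genes of the p53 response, bone cells, cartilage, marrow lineages and the cell cycle. Dashed lines mark a 2-fold difference; most intervals cross 0, and those of Calcr, Tnfsf11 and Lpl do not.

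Bone-forming genes were slightly lower after F-PRT than after S-PRT without any passing the test. Of 24 osteoblast genes 4 were positive, with a median of -0.15, and all 24 intervals lay within 2-fold. Col1a1 averaged a log2 difference of -0.16 (-0.67 to 0.36), Bglap, which encodes osteocalcin, -0.07 (-0.38 to 0.25), Alpl, the mineralising phosphatase, -0.17 (-0.52 to 0.19) and Sp7, the osteoblast transcription factor osterix, -0.28 (-0.72 to 0.17). F-PRT 3 was the lowest of the irradiated libraries in all 4 of these genes, with Col1a1 at 14362 CPM against 22836 to 28488 CPM in the other F-PRT libraries. Without F-PRT 3 the list's median was 0.02, and with F-PRT 1 as the only F-PRT library it was -0.17. Against Untreated, Bglap rose by 1.00 after F-PRT (adjusted p = 2.50e-04) and by 1.07 after S-PRT (adjusted p = 1.86e-04). Of 15 osteocyte genes 2 were positive with a median of -0.07, which was 0.04 without F-PRT 3 and -0.23 without F-PRT 4. The member of smallest p was Hpse2, a heparanase-related gene, at 1.14 (0.16 to 2.12, adjusted p = 1, edgeR). It had 0.47, 1.24, 1.16 and 1.31 CPM in F-PRT libraries and 0.456, 0.622, 0.121 and 0.695 CPM in S-PRT libraries, against 0.2 to 0.434 CPM in Untreated libraries, and F-PRT 1 lay inside the S-PRT range. Sost, the osteocyte inhibitor of bone formation, lay at -0.29 (-1.06 to 0.47) and Mepe at -0.41 (-1.21 to 0.39), intervals that do not exclude a difference of 2-fold.

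Cartilage showed the lowest median of all lists, and its size depended on the libraries kept. All 26 genes were negative with a median of -0.33, but without F-PRT 3 the median was -0.05. With F-PRT 1 as the only F-PRT library it was -0.31, and with the keratinocyte covariate -0.58. Col2a1, the collagen of cartilage, had 736, 852, 134 and 1052 CPM in F-PRT libraries and 917, 892, 826 and 1053 CPM in S-PRT libraries, against 834, 289, 307 and 236 CPM in Untreated libraries. Apart from F-PRT 3 the beams overlapped, and Untreated 1 stood with the irradiated libraries. The log2 difference between the beams was -0.41 (-1.48 to 0.65), and that of Acan, the aggregating proteoglycan, -0.51 (upper bound of the interval 0.49).

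Osteoclast genes were level between the beams and higher than in Untreated bone. Of 28 genes 16 were positive, with a median of 0.04, while 19 rose and 3 fell after F-PRT and 19 rose and 2 fell after S-PRT against Untreated. Of all genes tested, 15.5% rose and 17.2% fell after F-PRT, and 13.3% rose and 15.2% fell after S-PRT. Ctsk, the collagen-degrading cathepsin K, had 549.9, 698, 315 and 703 CPM in F-PRT libraries and 571, 541, 496 and 606 CPM in S-PRT libraries, against 413, 274, 301 and 226 CPM in Untreated libraries. The beams overlapped, at a log2 difference of 0.03 (-0.46 to 0.53). Calcr, the calcitonin receptor of osteoclasts, was the member of smallest p (0.0175, adjusted p = 1, edgeR), with 3.18, 3.83, 2.98 and 4.29 CPM in F-PRT libraries and 4.68, 5.04, 6.88 and 4.93 CPM in S-PRT libraries, against 1.63, 1.75, 0.867 and 1.61 CPM in Untreated libraries. The groups were separate, with Calcr at a log2 difference of -0.59 (-1.06 to -0.12), and 1.04% of all genes lay separate in this direction. Tnfsf11 (RANKL), the ligand that drives osteoclast formation, lay at 0.38 (0.02 to 0.74), its receptor Tnfrsf11a at -0.08 (-0.48 to 0.33) and its decoy Tnfrsf11b (osteoprotegerin) at 0.05 (-0.51 to 0.61).

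Neutrophil, erythroid and megakaryocyte genes fell after both beams. Of 23 tested neutrophil lineage genes 21 fell after each beam against Untreated (edgeR), beside 17.2% of all genes that fell after F-PRT and 15.2% after S-PRT, and the median between the beams was -0.04. Ltf, the granule protein lactoferrin, had 32, 18.3, 28.4 and 21.1 CPM in F-PRT libraries and 62.5, 23.8, 22 and 16.6 CPM in S-PRT libraries, against 527, 1372, 1756 and 1976 CPM in Untreated libraries. The beams overlapped, at -0.33 (-1.25 to 0.60), an interval that leaves room for a 2-fold difference, as did 12 of the 23 genes. Of 25 erythroid genes 19 fell after F-PRT and 18 after S-PRT. Between the beams all 25 were negative, at a median of -0.16 with every interval within 2-fold. Hbb-bs, an adult beta globin, had 6988, 4863, 4644 and 4231 CPM in F-PRT libraries and 5762, 6036, 7206 and 4386 CPM in S-PRT libraries, against 15020, 20943, 19439 and 21092 CPM in Untreated libraries. The Hbb-bs ranges overlapped, and the sign of the erythroid median turned to 0.23 when only F-PRT 1 was kept among the F-PRT libraries. Itga2b, the platelet integrin, differed by 0.03 (-0.25 to 0.30) and Pf4, a platelet chemokine, by -0.07 (-0.38 to 0.24), with 17 of 19 megakaryocyte genes having fallen after F-PRT and 18 after S-PRT. Rag1, the recombinase of immature lymphocytes, fell by 4.86 after F-PRT (adjusted p = 9.47e-08) and by 5.53 after S-PRT (adjusted p = 4.80e-08), with 2.29, 3.36, 1.28 and 1.74 CPM in F-PRT libraries and 1.43, 1.11, 1.63 and 1.26 CPM in S-PRT libraries, against 39.6 to 79.4 CPM in Untreated libraries. The beams overlapped in Rag1 too, at 0.67 (-0.03 to 1.37).

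T cell, NK cell and macrophage genes were mostly positive, and their medians depended on S-PRT 2. T and NK cell genes were positive in 22 of 25, at a median of 0.20 that became 0.03 without S-PRT 2, and macrophage genes in 21 of 23, at 0.25 that became 0.07 without it. Against Untreated (edgeR), 21 of the 25 T and NK cell genes rose after F-PRT and 18 after S-PRT, with 0 that fell after either. Of the 23 macrophage genes 16 rose and 2 fell after F-PRT, and 15 rose and 2 fell after S-PRT. The shares over all genes were 15.5% that rose and 17.2% that fell after F-PRT, and 13.3% and 15.2% after S-PRT. Cd28, the T cell costimulator, was narrowly separate, with 13.3, 16, 18.3 and 15.7 CPM in F-PRT libraries and 9.07, 10.7, 13.3 and 11.9 CPM in S-PRT libraries, against 6.51, 7.62, 8.27 and 5.69 CPM in Untreated libraries, a log2 difference between the beams of 0.49 (0.17 to 0.82). Cd3e, a chain of the T cell receptor complex, lay at 0.14 (-0.35 to 0.64). Adgre1 (F4/80), a macrophage marker, lay at 0.18 (-0.31 to 0.67) and Csf1r, the macrophage growth factor receptor, at 0.12 (-0.19 to 0.43). Ly6c2, a surface antigen of inflammatory monocytes, was the macrophage list's member of smallest p, at 0.81 (0.06 to 1.56). It was separate between the beams but fell against Untreated, by 1.08 after F-PRT (adjusted p = 0.0293, edgeR) and by 1.90 after S-PRT (adjusted p = 0.00155). Of 20 stem and progenitor cell genes 15 were positive, with a median of 0.09, and 1 was separate upward, beside 1.81% of all genes. That was Ly6a (Sca-1), an antigen of these cells and the member of smallest p in that list, at 0.70 (0.32 to 1.08). Ly6a rose by 1.83 after F-PRT (adjusted p = 9.83e-06, edgeR) and by 1.13 after S-PRT (adjusted p = 4.76e-04).

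Inflammatory ligands differed less than the interferon genes. Of 25 tested cytokines and chemokines 21 were positive with a median of 0.22, and 1 was separate, beside 1.81% of all genes separate upward. That was Ccl2, the monocyte chemoattractant, with 4.53, 4.84, 4.32 and 4.35 CPM in F-PRT libraries and 3.48, 2.35, 3.02 and 2.47 CPM in S-PRT libraries, against 0.542, 0.915, 0.267 and 0.603 CPM in Untreated libraries. All 3 groups were separate, at 0.67 (0.17 to 1.17) between the beams. Il1b lay at 0.17 (-0.40 to 0.74) and Tnf at -0.11 (-0.59 to 0.37).

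Redox, TGF-beta, cell cycle, repair and mitochondrial genes lay close to 0 between the beams with all libraries in. Of 23 redox genes 16 were positive with a median of 0.04 and 22 intervals within 2-fold, and 2 were separate upward, beside 1.81% of all genes. Hmox1, the haem oxygenase, lay at 0.07 (-0.76 to 0.91) and Nqo1, a quinone reductase under Nrf2, at 0.04 (-0.31 to 0.39), while Slc7a11, the cystine importer, was separate at 0.51 (0.00 to 1.01). In the TGF-beta and BMP pathway 20 of 34 were positive with a median of 0.06, all 34 within 2-fold, with Tgfb1 at 0.06 (-0.25 to 0.38) and its receptor gene Tgfbr2 at 0.15 (-0.13 to 0.42). Of 36 mitosis and replication genes 10 were positive with a median of -0.05, with Mki67 at -0.10 (-0.53 to 0.33) and Top2a, the topoisomerase of dividing cells, at 0.03 (-0.33 to 0.39). All 35 DNA repair genes and all 34 oxidative phosphorylation genes had intervals within 2-fold, at medians of -0.02 and 0.02. With F-PRT 1 as the only F-PRT library the mitosis and replication median was 0.25 and the DNA repair median 0.15. With the keratinocyte covariate these medians were 0.16 and 0.10.

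**Figure D5:**
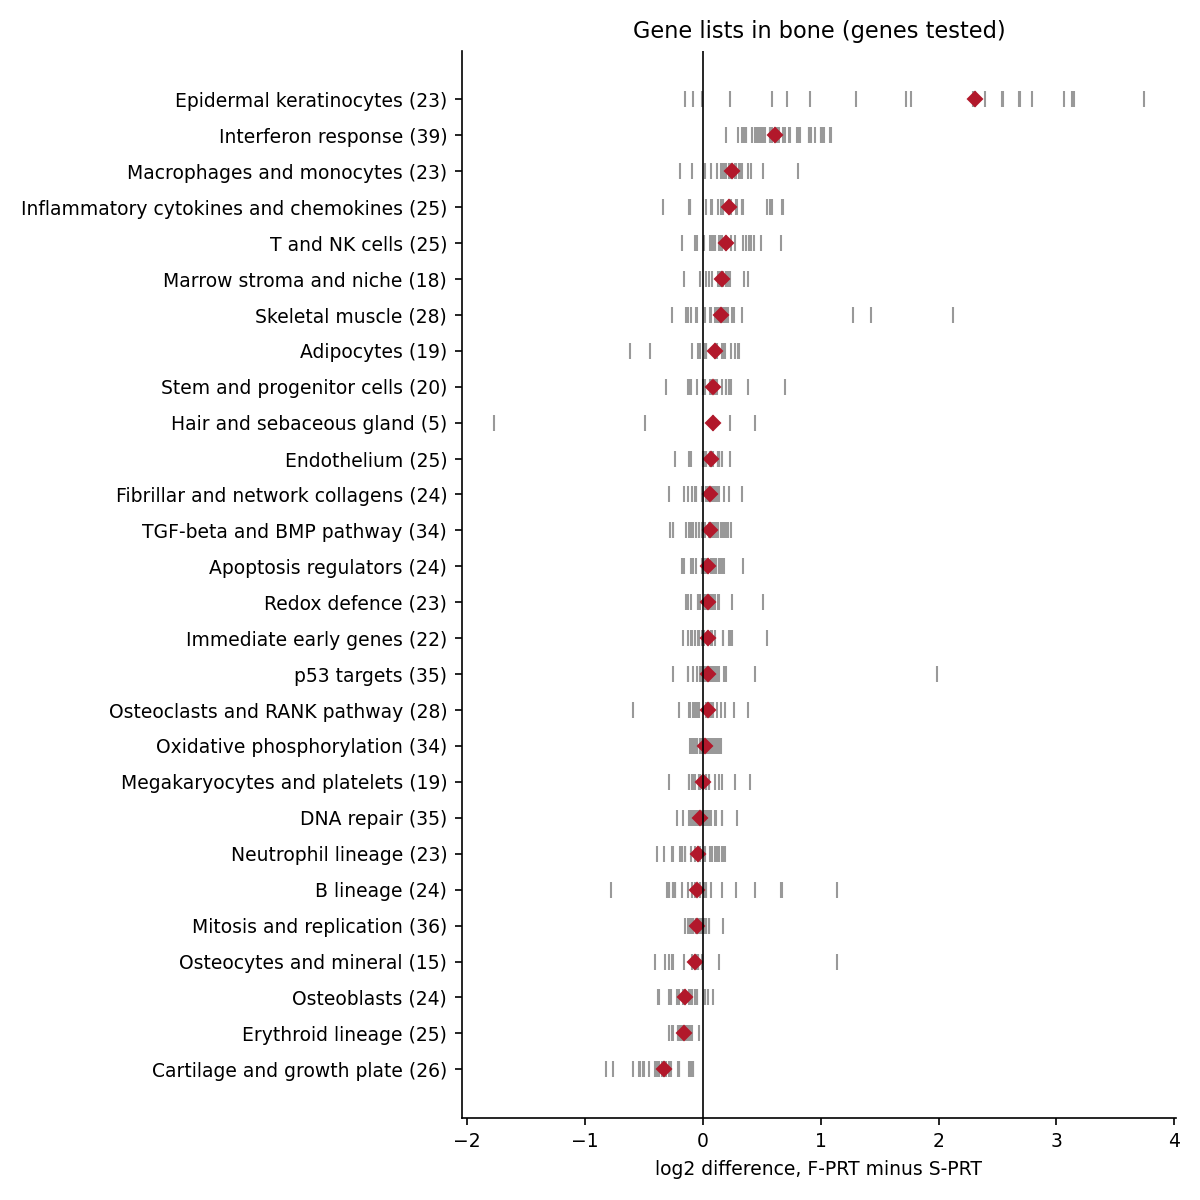
Log2 difference, F-PRT minus S-PRT, of each tested gene (grey ticks) in 28 gene lists, with the list median (red diamond) and the number tested in brackets. The interferon response list, at a median of 0.61, lies apart from the bone, marrow and repair lists, whose medians lie between -0.33 and 0.25; the keratinocyte list, at 2.31, is that of the epidermal traces.

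Stromal and fat genes of the marrow were close between the beams. Of 18 stromal niche genes 16 were positive with a median of 0.16, and Cxcl12, which retains blood stem cells, lay at 0.17 (-0.27 to 0.62). Il7, the B cell growth factor made by stroma, rose by 2.09 after F-PRT (adjusted p = 6.35e-07) and by 1.71 after S-PRT (adjusted p = 3.56e-06) and lay at 0.38 (0.09 to 0.68) between the beams. Lpl, the lipoprotein lipase, had 649, 759, 726 and 766 CPM in F-PRT libraries and 607, 604, 533 and 592 CPM in S-PRT libraries, against 156, 238, 235 and 244 CPM in Untreated libraries. The 3 groups were separate, with Lpl at 0.31 (0.02 to 0.60) between the beams, whereas Thrsp, a lipogenic gene, lay at -0.62 (-1.16 to -0.09) and Adipoq, the fat hormone, at 0.17 (-0.27 to 0.60).

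Keratinocyte genes had the largest numbers of all, and they followed single libraries. The summed CPM of 34 keratinocyte genes was 22.5, 421, 87.8 and 161 in F-PRT libraries and 36.1, 28, 31.7 and 95 in S-PRT libraries, against 24.6 to 30.3 in Untreated libraries. F-PRT 1 lay below every other library and F-PRT 2 above all, so the beams overlapped, and 0 of the 23 tested genes were separate. Of the 34 genes, 11 did not reach the filter on low counts. Krt10, a keratin of the upper epidermis, had 0.412, 64.5, 11.1 and 22 CPM in F-PRT libraries and 1.88, 0.484, 1.63 and 10.1 CPM in S-PRT libraries, against 2978 to 8543 CPM in the skin libraries.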

How the data were processed

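RNA of 24 mouse libraries was sequenced by the submitters as read pairs of 2 x 150 bases, per the labels. Per the submitters' processing notes the tools included STAR, RSEM, cutadapt and FastQC and the build was GRCm38; the sources used here do not state versions or strand. RSEM results for 55471 genes are in each deposited file. The deposited expected counts were rounded to whole numbers and tested. The deposited TPM, per transcript length and library, entered no comparison, and FPKM was not used. GENCODE M21 supplied names and positions for 55230 identifiers and not for 241.

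The 12 bone libraries were fitted together with edgeR 4.0.16 (R 4.3.3, TMM scaling, filterByExpr, quasi-likelihood F test, Benjamini-Hochberg adjustment over all 18848 genes tested). F-PRT was compared with S-PRT, and each beam with Untreated. The 95% intervals came from the same fit. CPM carries TMM scaling, and log2 CPM a prior count of 2. A difference is called separate where all 4 libraries of one beam lie beyond all 4 of the other. Within each bone group, replicate pairs differed by more than counting error (chi-square over its degrees of freedom between 10.5 and 119). No library was thus a mere second read of another in its group. Pairs across groups were not compared in this way, and libraries made from the same mouse are not excluded. The floor of 3 counts covers counting error only. The workflow was tested on simulated data. Some items are not reported here.

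The libraries, the 28 gene lists, a panel of genes and the rules were chosen with earlier results of these data known. Named genes were drawn from panel genes, genes past the test, the 6 of smallest p, the 6 largest differences each way among separate genes (mean of at least 2 CPM, leaving out numbered gene models, pseudogenes and receptor segments) and the member of smallest p in each list. The families related to interferon, the motif and the other genes named were chosen after their values were seen. Alternatives were DESeq2 1.42.0, limma 3.58.1 voom with quality weights, RLE scaling, other filters, a replicate block, keratinocyte and muscle covariates, the 8 irradiated libraries alone and leaving libraries out. Scaling by RLE moved the median of all genes by 0.01 on the log2 scale.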

Additional observations from a re-analysis of the deposited data

Results flagged for a closer look

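In 33 of 429 groups of 4 libraries a single library lay far from the other 3; chance alone gives about 1 in 20. Among the F-PRT libraries these were F-PRT 1 for Elane, a neutrophil elastase, at 53.7 CPM (others 39.9 to 40.5), F-PRT 2 for Kdr at 142 CPM (114 to 118) and F-PRT 3 for the B lineage list at a mean log2 CPM of 4.17 (4.46 to 4.50).

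S-PRT 2 was low for Ifit3 at 14.4 CPM (25.7 to 27.5), Ddx58 at 56.4 CPM (74.7 to 77.9), Jak1 at 215 CPM (263 to 266), Eps8l1 at 8.29 CPM (12 to 12.5) and the macrophage and monocyte list at a mean log2 CPM of 5.97 (6.80 to 6.87). S-PRT 1 was high for Pnma1 at 3.54 CPM (2.56 to 2.72), Adipoq at 153 CPM (96.8 to 105), Ltf at 62.5 CPM (16.6 to 23.8) and Itga2b at 23 CPM (17.5 to 18.1), and S-PRT 3 for Calcr at 6.88 CPM (4.68 to 5.04). S-PRT 4 was high for keratin genes, with Krt14 at 4.05 CPM (0.138 to 0.241), Krt5 at 6.13 CPM (0.181 to 0.415), Krt10 at 10.1 CPM (0.484 to 1.88), Krt2 at 3.29 CPM (0.207 to 0.571) and the keratinocyte list at a mean log2 CPM of 0.86 (others at -0.79 or lower).

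Untreated 1 was high for the cartilage genes Col2a1 at 834 CPM (236 to 307) and Acan at 135 CPM (41.2 to 56.1), for the osteoblast factor Runx2 at 170.2 CPM (125 to 133), for Slfn14 at 196 CPM (127 to 135) and for Pnma1 at 4.12 CPM (2.28 to 2.53). It was low for Lpl at 156 CPM (235 to 244), Pf4 at 49 CPM (72.5 to 77) and the marrow stroma list at a mean log2 CPM of 5.41 (others at 5.69). Untreated 2 was high for the DNA repair list at 5.02 (others at 4.88). Untreated 3 was high for Fgl2 at 58.4 CPM (45.3 to 47.5) and low for Calcr at 0.867 CPM (1.61 to 1.75) and Tnfrsf11b at 4.2 CPM (6.77 to 7.05). Single counts gave Krt14 in Untreated 3 at 0.0667 CPM and Il12b and Ifnb1 in Untreated 4 at 0.067 CPM, where the other Untreated libraries read 0.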

How the results depend on the processing

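The number of genes past the test between the beams, 1 with edgeR, was 21 with DESeq2, 11 without a filter on low counts, 3 without F-PRT 2, F-PRT 3 and F-PRT 4, and 0 with the replicate block, with only the 8 irradiated libraries, with the keratinocyte covariate and with the skeletal muscle covariate. It ran from 0 to 1 when each library was left out in turn. The DESeq2 genes were all higher after F-PRT; those without a filter held 7 interferon response genes, Krt2 and 3 immunoglobulin genes. Genes with a 95% interval within 2-fold numbered 15309, between 11519 and 15665 over the alternatives. Calls against Untreated, 6161 after F-PRT, were 2791 with the keratinocyte covariate and 971 without F-PRT 2, F-PRT 3 and F-PRT 4, and ran from 4803 to 6727 over the leave-one-out fits; after S-PRT they ran from 4054 to 6158 over those fits. The fit without F-PRT 2, F-PRT 3 and F-PRT 4 leaves 1 F-PRT library, assumed to vary like the other groups. The cause of the other moves was not tested. Deviations of same-numbered F-PRT and S-PRT libraries from their group means had correlations of 0.12, -0.079, -0.134 and 0.15 for numbers 1 to 4. These values show no pairing by number and do not exclude libraries made from the same mouse. The replicate block gave 0 calls between the beams, and 5625 for F-PRT and 4917 for S-PRT against Untreated. That result says nothing of the size of an effect. Slfn4 kept a log2 difference from 0.91 to 1.14 but was not called with the block (adjusted p = 0.141), the 8 libraries (0.129), the keratinocyte covariate (0.375) or the muscle covariate (0.0635). The depth reads most interferon ligands at or near 0.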

Other observations

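Of 25 endothelial genes 14 rose, 2 fell and 9 did not pass after F-PRT against Untreated (edgeR). Of all genes, 15.5% rose and 17.2% fell. After S-PRT 15 rose, 2 fell and 8 did not pass, beside 13.3% of all genes that rose and 15.2% that fell. The 2 that fell after both beams were Vwf, which encodes von Willebrand factor, and the transcription factor Erg. Between the beams 21 of 25 were positive, with a median of 0.07 and every interval within 2-fold. Cdh5, the cadherin of endothelial junctions, had 131, 158, 143 and 145 CPM in F-PRT libraries and 157, 102, 115 and 155 CPM in S-PRT libraries, against 56.5, 65.5, 74.3 and 76.8 CPM in Untreated libraries. The beams overlapped and both lay above Untreated bone. Kdr, the main receptor for vascular endothelial growth factor, lay at 0.23 (95% interval -0.07 to 0.52) between the beams.

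B lineage genes did not lean to one beam. Between the beams 10 of 24 were positive with a median of -0.05, and against Untreated 2 rose and 11 fell after F-PRT and 3 rose and 11 fell after S-PRT (edgeR). Of all genes, 15.5% rose and 17.2% fell after F-PRT, and 13.3% rose and 15.2% fell after S-PRT. Ighm, the heavy chain of IgM, had 719, 527, 568 and 1222 CPM in F-PRT libraries and 2364, 562, 1513 and 777 CPM in S-PRT libraries, against 553, 1678, 1987 and 806 CPM in Untreated libraries. Its spread within each group was wider than the difference between them, at -0.78 (-1.80 to 0.23).

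Il12b, a subunit of the interferon gamma-inducing cytokines IL-12 and IL-23, did not reach the filter on low counts. It held 48 counts over the 4 F-PRT libraries and 21 over the 4 S-PRT libraries, against 1 over the 4 Untreated libraries. By library Il12b read 0.647, 0.944, 0.974 and 0.311 CPM after F-PRT and 0.228, 0.276, 0.362 and 0.442 CPM after S-PRT, so the beams overlapped at F-PRT 4.

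Krt2, a keratin of upper epidermis, stood apart from the other keratins in its ratio to the skin libraries. It had 0.0588, 34.4, 5.48 and 21 CPM in F-PRT bone libraries and 0.571, 0.207, 0.483 and 3.29 CPM in S-PRT bone libraries, against 0 to 27.4 CPM over the 12 skin libraries of the series. F-PRT 2 bone thus exceeded every skin library in Krt2, while its Krt14, at 20.4 CPM, was far below the lowest skin library, at 1952 CPM. Its source was not tested.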
